A study of Mus musculus with 10 samples.

Results

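Integrin subunit genes were followed in long-term hematopoietic stem cells (LT-HSCs) sorted from mouse fetal liver at E14.5 (embryonic day). Of the 17404 genes in the deposited table, 10 were taken by name: the alpha subunits Itga4, Itga5, Itga6, Itga9, Itgal and Itgav, and the beta subunits Itgb1, Itgb2, Itgb3 and Itgb7. They are 10 of the 27 mouse integrin subunit genes listed for this work. Bulk RNA-seq was compared between 6 KO libraries, of genotype Tnfrsf11aCre/+; Spi1f/f, and 4 WT libraries from littermates of genotype Tnfrsf11a+/+; Spi1f/f. All embryos therefore carried floxed Spi1 alleles, which encode PU.1, and the groups differed in the Cre allele, which is driven by the Tnfrsf11a locus in macrophage precursors and depletes fetal macrophages. Stem cells were sorted as lineage-negative, Kit-positive, Sca1-positive, CD48-negative and CD150-positive cells, a gate that holds no marker to remove endothelial cells or CD41-positive cells. The comparison asks whether stem cells of a liver poor in macrophages differ in the RNA of their adhesion receptors. Nothing in the labels names the litter of an embryo, so the p-values measure the spread between these libraries.

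Integrins are adhesion receptors of the cell surface, each made of an alpha chain and a beta chain that leave the endoplasmic reticulum only as a pair. The beta1 chain has many alpha partners, whereas alphaL pairs with beta2 alone, and the alpha chain largely sets which ligand is bound. Blood stem cells use alpha4 and alpha5 integrins to hold on to VCAM-1 and fibronectin, alpha6 integrin for laminins, and beta2 integrins for ICAMs. Talin and kindlin bind the cytoplasmic tail of the beta chain and switch the receptor on.

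Gene counts totalled 5315435 to 30941726 per KO library and 7633446 to 18256010 per WT library. Levels are given as CPM, counts per 1000000 counts after TMM normalization for library composition, and only differences of the same gene between libraries are read from them. All 12 stem cell markers on the list were detected, with a summed level of 735 to 1980 CPM in KO and 729 to 949 CPM in WT, and 4 of the 12 (Cd34, Hoxa9, Mecom and Hlf) were higher in KO at the threshold used below. Markers of other cells were present as well. The 12 endothelial markers summed to 1725 to 9432 CPM in KO and to 538 CPM in WT replicate 1 against 4901 to 6160 CPM in the other WT libraries, and the 10 megakaryocyte and platelet markers to 278 to 4251 CPM in KO and 281 to 1397 CPM in WT. Of the 15 macrophage markers tested, 13 had a log2 fold change below 0, with a median of -1.15, and 1 was lower at the threshold used below. Their sum, 208 to 926 CPM in KO and 102 to 710 CPM in WT, lay to a large part in Mrc1, a mannose receptor also found on sinusoidal endothelium, and without it spanned 130 to 212 CPM in KO, beside 98.6 to 368 CPM in WT. Marco was at 0 in all 6 KO libraries and in none of the 4 WT libraries. Hepatoblast markers, at 98.2 to 9105 CPM, were highest in KO replicates 5 and 6 and WT replicate 3. All 8 erythroblast markers tested had a log2 fold change below 0, with a median of -1.396, and 3 were lower at an unadjusted p below 0.05 by edgeR. Only 1 of them, Epor, was lower at the threshold used below, with a log2 fold change of -0.999 (edgeR adjusted p = 0.0937). Erythroblast markers summed to 278 to 2447 CPM in KO and 296 to 6808 CPM in WT. Beside these lists, 7841 of all 16725 genes tested had a log2 fold change below 0. Of all genes, 1701 were lower at an unadjusted p below 0.05 by edgeR, and 1.32% were higher and 2.67% lower at the threshold used below. In bulk samples, fewer cells of a type and less RNA per cell cannot be told apart. Spi1, the floxed gene, had 9.10 to 101 CPM in KO and 6.22 to 50.1 CPM in WT libraries, so its level does not separate the genotypes. Xist, the RNA of the inactive X chromosome, was at 106 to 149 CPM in every WT library and at 346 and 361 CPM in KO replicates 3 and 2, but at 1.36 to 2.38 CPM in KO replicates 1, 4, 5 and 6. The apparent sex of the material thus differed between the groups as well.

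**Figure D1:**
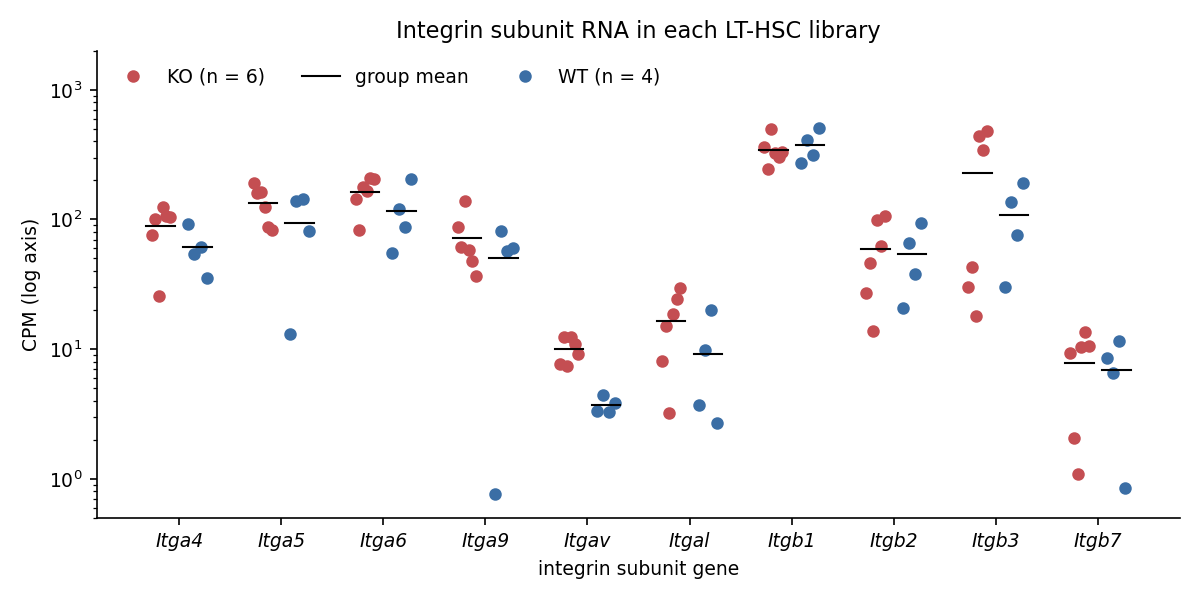
CPM of the 10 integrin subunit genes in each library on a log axis; red points are the 6 KO and blue points the 4 WT libraries, and black lines are group means. Itgav is the gene whose groups do not overlap, at 7.37 to 12.5 CPM in KO and 3.25 to 4.44 CPM in WT, and Itga9 lies at 0.758 CPM in WT replicate 1.

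Of the 10 integrin genes, only Itgav, the alphaV chain of receptors for vitronectin, fibronectin and osteopontin, differed between the genotypes at an adjusted p below 0.1 (quasi-likelihood F test of edgeR, Benjamini-Hochberg adjusted over 16725 genes). It was higher in KO. Over all genes tested, 1.32% were higher and 2.67% lower at this threshold, 3.99% in either direction. Itgav had 7.68, 12.5, 7.37, 12.5, 11.04 and 9.14 CPM in KO replicates 1 to 6. In WT replicates 1 to 4 it had 3.34, 4.44, 3.25 and 3.82 CPM. In CPM, every KO library was above every WT library, as was the case for 2.88% of the genes tested. In TPM, the per-length unit explained below, the groups overlapped, at 5.10 to 8.45 in KO and 1.09 to 6.47 in WT. The means were 10.03 ± 2.30 CPM (SD, n = 6) and 3.71 ± 0.544 CPM (SD, n = 4), and the log2 fold change was 1.43 with a standard error of 0.38 (edgeR adjusted p = 0.0896). These levels rest on 79 to 357 counts per KO library and 27 to 50 counts per WT library.

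The direction of Itgav held under all 19 alternative settings, with log2 fold changes from 1.12 to 1.53, but its call did not. With DESeq2 and the fold-change threshold of the study the adjusted p was 0.00162, whereas it was 0.144 after an offset for transcript length, 0.283 with Xist as a covariate and 0.116 with limma on log2(TPM + 1), for which the fold change is on that scale. Leaving out KO replicate 1, 2, 4, 5 or 6, or WT replicate 1 or 3, also ended the call, with edgeR adjusted p-values of 0.113 to 0.213. Low Xist occurred only in KO libraries (replicates 1, 4, 5 and 6), so apparent sex and genotype cannot be fully told apart here.

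Itgav lies on chromosome 2 of GRCm38 from 83724397 to 83806916 on the plus strand. Its reads were shared among several annotated transcripts. Itgav-201 and Itgav-202, which encode the whole chain, took 68.4% of its estimated counts over all libraries, and Itgav-205, a fragment of 463 bases at the end of the gene, took 24.2%. All 463 bases of the fragment also lie in the exons of Itgav-202, so the division between them is an estimate. The full-length transcripts alone came to 4.26 to 10.5 CPM in KO and 1.31 to 2.98 CPM in WT, with no overlap. Itgav-205 came to 1.10 to 3.26 CPM in KO and 0.282 to 2.05 CPM in WT, and these ranges overlapped. An antisense gene, Gm13684, shares 634 exonic bases with Itgav (5.90% of its exonic length), and reads of the pair cannot be told apart where the protocol keeps no strand.

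Marker sums were set beside Itgav. WT replicate 1, with 538 CPM of endothelial markers, had 3.34 CPM of Itgav, and the other WT libraries, with 4901 to 6160 CPM of those markers, had 3.25 to 4.44 CPM. Among KO libraries, the lowest Itgav, 7.37 CPM in replicate 3, coincided with the highest endothelial sum, 9432 CPM, and with the lowest stem cell sum, 735 CPM. Of the 3 libraries highest in Itgav, 2 were among the 3 highest in summed stem cell markers, and 2 of the 3 lowest were shared as well. With megakaryocyte and platelet markers, 2 of the 3 highest and 1 of the 3 lowest were shared. The part of these summed markers in the result was not tested.

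Itgb1, the common beta chain of the group, differed little between the genotypes. On chromosome 8 of GRCm38 (128685654 to 128733200, plus strand), it had a lowest level of 247, a median of 330 and a highest level of 503 CPM in KO. WT replicates 1 to 4 had 274, 413, 313 and 504 CPM. The groups covered nearly the same range, with means of 345 ± 86.0 CPM (SD, n = 6) and 376 ± 104 CPM (SD, n = 4). Relative to WT, Itgb1 in KO had a log2 fold change of -0.12 with a standard error of 0.23 (edgeR adjusted p = 0.816), and the sign turned without WT replicate 4. The genes with the course most similar to that of Itgb1 were Ctnnb1 (beta-catenin) and Itm2b, whose log2 CPM, centred on each gene's mean, differed from that of Itgb1 by a root mean square of 0.13 and 0.14 over the 10 libraries. The median for the 9494 genes compared was 0.57. For Itgav the nearest genes were Relch, Sbno2 and Vmac, at 0.20, 0.28 and 0.28, with log2 fold changes of 1.20, 1.42 and 1.23. They were chosen for resembling Itgav, so their own difference adds no evidence.

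Itga4 encodes the alpha4 chain, which with beta1 forms VLA-4, the receptor for VCAM-1. It lies on chromosome 2 from 79255426 to 79333123 and had 25.5, 103 and 125 CPM as the lowest, median and highest KO level. WT replicates 1 to 4 had 92.7, 54.0, 60.9 and 35.7 CPM. KO replicate 3 was the lowest of all libraries and the other KO libraries lay at or above 75.3 CPM, so the groups overlapped. Its log2 fold change was 0.56 with a standard error of 0.38 (edgeR adjusted p = 0.461), and 0.38 to 0.84 with 1 library left out. The 3 libraries highest in Itga4 were the 3 highest in summed megakaryocyte and platelet markers, whereas 1 of the 3 lowest was shared. Stem cell markers shared 2 of the 3 highest and 2 of the 3 lowest, as did neutrophil and granule markers. The part of all those markers was not tested. Cerkl, on the opposite strand, shares 1124 exonic bases with Itga4 (8.04%).

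Itga5, the fibronectin receptor chain of VLA-5, lies on chromosome 15 from 103344286 to 103366763 on the minus strand. KO libraries had 83.3, 142 and 191 CPM as lowest, median and highest, and WT replicates 1 to 4 had 13.0, 139, 144 and 81.4 CPM. WT replicate 1 stood far below the other 9 libraries. The log2 fold change of 0.51 (standard error 0.51, edgeR adjusted p = 0.634) fell to 0.15 without that library.

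Itga9, whose product pairs with beta1 and binds tenascin-C, osteopontin and VCAM-1, behaved alike. It lies on chromosome 9 from 118606690 to 118901003. KO libraries had 36.5, 59.7 and 139 CPM as lowest, median and highest, and WT replicates 1 to 4 had 0.758, 81.7, 57.3 and 60.3 CPM. The value of WT replicate 1 rests on 10 counts, against 426 to 921 in the other WT libraries. The log2 fold change was 0.52 (standard error 0.79, edgeR adjusted p = 0.777), and 0.11 without that library. The 3 libraries highest in Itga9 were the 3 highest in summed endothelial markers, and the 3 lowest were the 3 lowest. In WT replicate 1, Stab2, a scavenger receptor of liver sinusoidal endothelium, was at 6.07 CPM against 827 to 1090 CPM in the other WT libraries. Kdr, the VEGF receptor of endothelium, was at 50.8 CPM there against 520 to 794 CPM. The part of endothelial RNA in the levels of Itga5 and Itga9 was not tested.

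**Figure D2:**
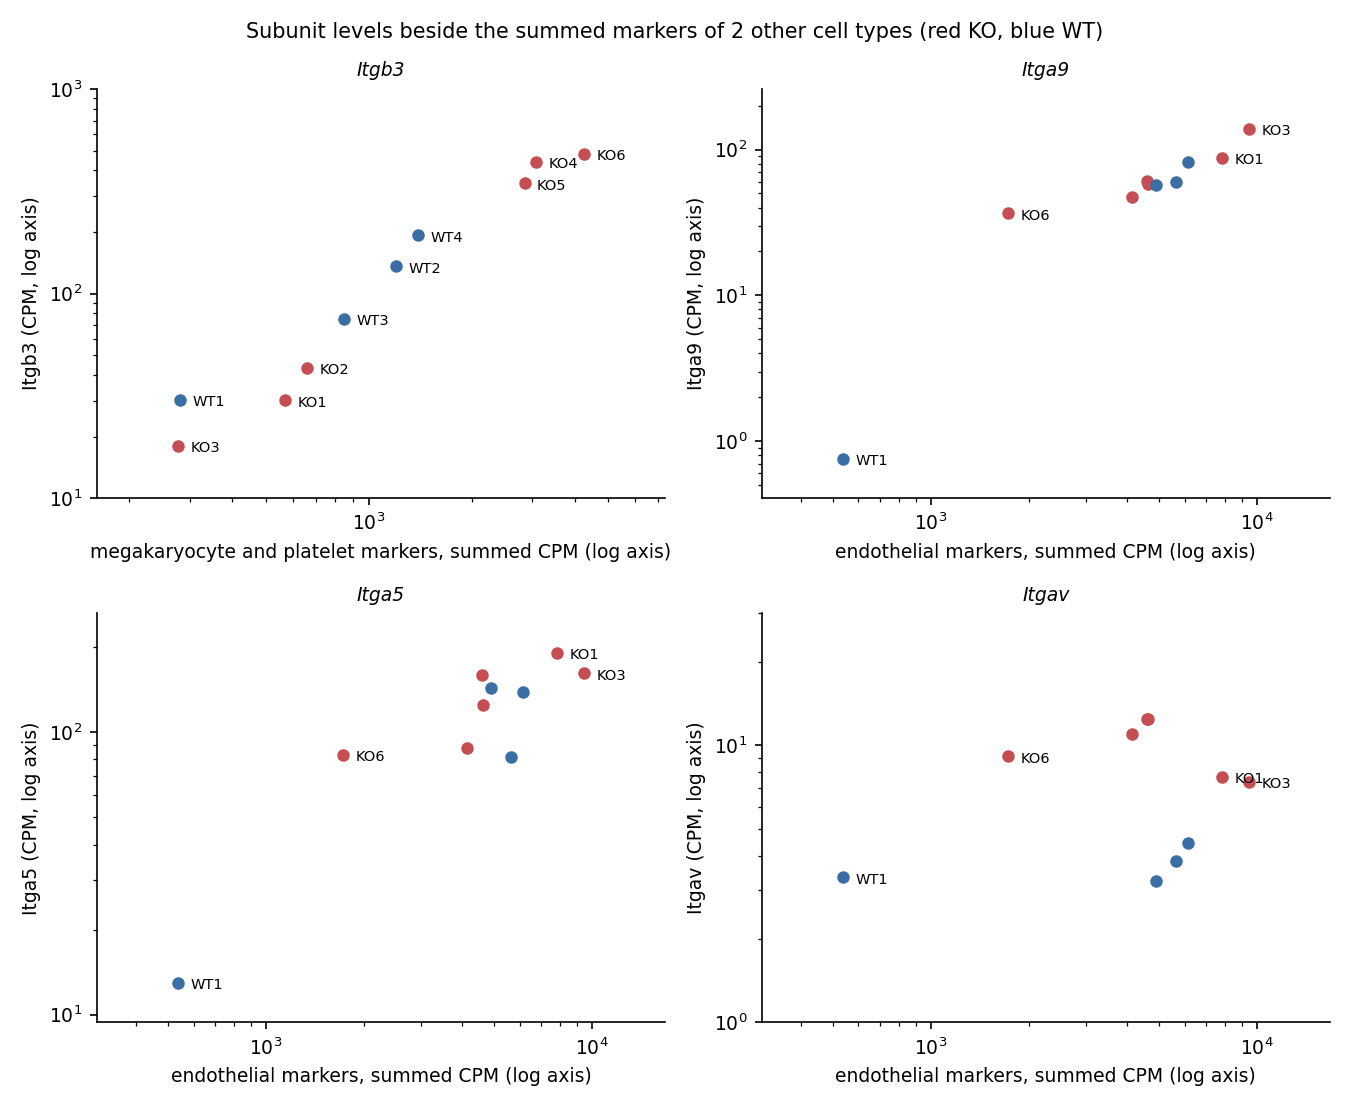
CPM of Itgb3, Itga9, Itga5 and Itgav in each library against the summed CPM of 10 megakaryocyte and platelet or 12 endothelial markers, all axes logarithmic, red KO and blue WT; every library is named in the first panel and KO1, KO3, KO6 and WT1 in the others. Itgb3 and Itga9 rise with the marker sums beside them across both genotypes, and the Itgav points lie in 2 layers by genotype.

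Itga6, the laminin receptor chain of VLA-6, lies on chromosome 2 from 71745616 to 71858416. KO libraries had 83.6, 173 and 207 CPM as lowest, median and highest, and WT replicates 1 to 4 had 55.2, 120, 87.8 and 206 CPM. The highest WT library matched the highest KO libraries. Between the genotypes Itga6 had a log2 fold change of 0.49 with a standard error of 0.34 (edgeR adjusted p = 0.479). It was 0.25 without WT replicate 1, 0.90 without WT replicate 4 and 0.02 without WT replicates 1 and 3. The alpha6 chain is made with either of 2 cytoplasmic tails, through an exon of 130 bases (71853534 to 71853663) that is spliced in or skipped. The coding ends of the transcripts with and without it, from Gencode vM21 on GRCm38, are shown because the estimated counts of these transcripts differed among libraries. Capitals mark the coding part after the last shared exon (71853534 to 71853638 in Itga6-201, 71855854 to 71856012 in Itga6-202), and the 30 bases in lower case before it (71849477 to 71849506) are common to both:
Itga6-201: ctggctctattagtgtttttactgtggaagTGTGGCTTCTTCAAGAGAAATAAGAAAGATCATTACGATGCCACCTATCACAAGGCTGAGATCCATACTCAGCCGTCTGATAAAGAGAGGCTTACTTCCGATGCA
Itga6-202: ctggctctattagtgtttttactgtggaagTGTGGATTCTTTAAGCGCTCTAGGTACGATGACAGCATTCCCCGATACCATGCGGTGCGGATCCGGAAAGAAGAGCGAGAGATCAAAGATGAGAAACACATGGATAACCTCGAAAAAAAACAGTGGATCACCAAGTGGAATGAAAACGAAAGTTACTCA

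The tail of Itga6-201 is coded by 105 bases and that of Itga6-202 by 159 bases. Itga6-201 took 23.4% of the gene's estimated counts, with 16.7 to 67.4 CPM in KO and 18.9 to 27.4 CPM in WT libraries. Itga6-202 had 24.6, 1.18 and 22.6 CPM in KO replicates 1, 2 and 3. In KO replicates 4 to 6 and in WT replicates 1 and 2 it was at 0, and in WT replicates 3 and 4 it had less than 1 estimated count. Most reads of the gene, 66.3%, were assigned to Itga6-203, a transcript annotated without a coding sequence that also lacks the exon of 130 bases. Both Itga6-202 and Itga6-203 join the exon ending at 71849506 to the exon starting at 71855854, so a read across this junction fits either, and these estimates do not fix the share of each tail.

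**Figure D3:**
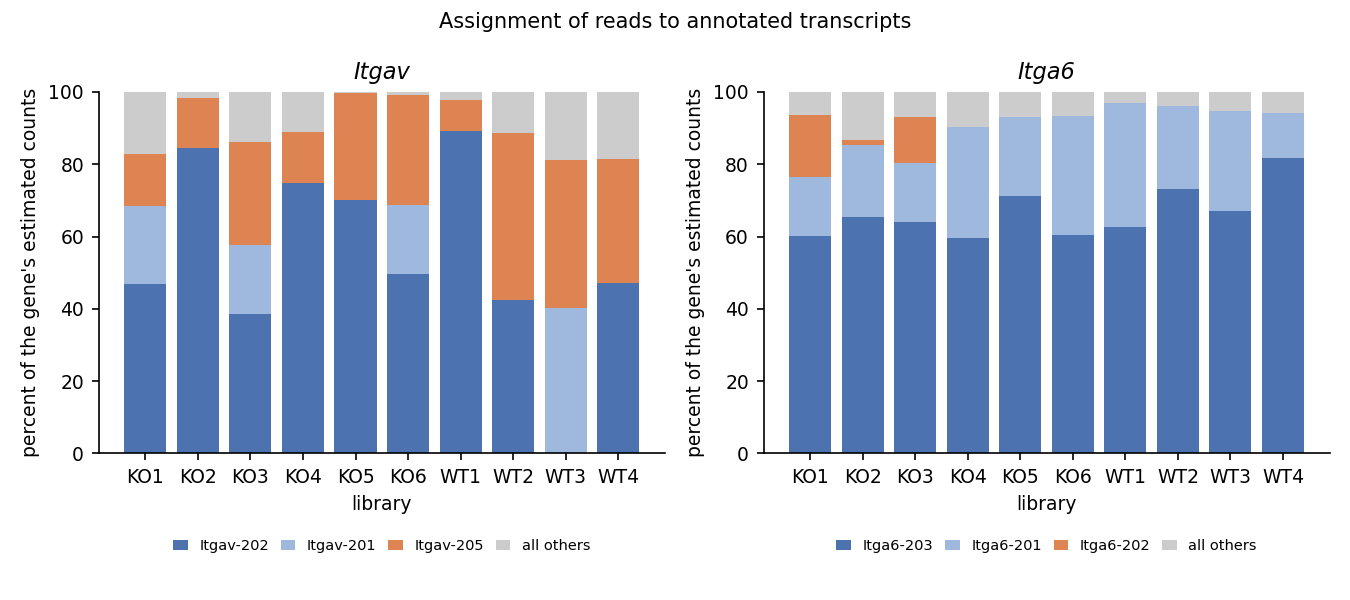
Percent of the estimated counts of Itgav (left) and Itga6 (right) assigned to each annotated transcript in every library, as stacked bars from 0 to 100%. Itgav-205 holds a larger share in WT replicates 2, 3 and 4 than in any KO library, and Itga6-202 appears in KO replicates 1 to 3.

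Itgb3 varied most among the beta chains. It pairs with alphaV, and with alphaIIb (Itga2b, also known as CD41) in the fibrinogen receptor of platelets, and lies on chromosome 11 from 104608000 to 104670476. KO replicates 1, 2 and 3 had 30.1, 43.3 and 18.1 CPM, and KO replicates 4, 5 and 6 had 440, 346 and 480 CPM. WT replicates 1 to 4 had 30.1, 136, 75.3 and 192 CPM. KO replicate 3 lay below the WT range, KO replicates 1 and 2 at its lower end, and KO replicates 4 to 6 above it, and the log2 fold change of 1.06 had a standard error of 0.98 (edgeR adjusted p = 0.611). With Xist as a covariate the sign turned, to -1.18. The 3 libraries highest in Itgb3 were the 3 highest in the summed megakaryocyte and platelet markers, which include Itga2b, and the 3 lowest were the 3 lowest. Those sums were 3085, 2857 and 4251 CPM in KO replicates 4 to 6, and 278 to 1397 CPM in the other libraries. Itga2b itself had 467, 359 and 648 CPM in KO replicates 4 to 6 and 44.5 to 252 CPM elsewhere. The part of megakaryocyte RNA in the level of Itgb3 was not tested.

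The leukocyte integrins overlapped between the genotypes as well. Itgal and Itgb2 encode the alphaL and beta2 chains of LFA-1, the receptor for ICAMs, and lie on chromosome 7 from 127296260 to 127335138 and on chromosome 10 from 77530252 to 77565708. Itgal had 3.20, 16.8 and 29.8 CPM as lowest, median and highest KO level, and 3.72, 9.85, 20.1 and 2.69 CPM in WT replicates 1 to 4. Its log2 fold change was 0.86, with a standard error of 0.66 (edgeR adjusted p = 0.520). It was 1.64 without WT replicate 3 and 0.18 with Xist as a covariate. The ranges of Itgal in the genotypes overlapped, and within each the lowest and highest libraries were several-fold apart.

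Itgb2 had 13.8, 54.3 and 106 CPM as lowest, median and highest KO level, and 20.7, 65.4, 38.0 and 93.1 CPM in WT replicates 1 to 4. The ranges nearly coincided, with a log2 fold change of 0.12 and a standard error of 0.55 (edgeR adjusted p = 0.929). The 3 libraries highest and the 3 lowest in Itgb2 were those highest and lowest in summed lymphoid markers, of which 6 of 11 were tested and which reached 15.0 to 57.1 CPM. The 3 lowest were also the 3 lowest in megakaryocyte and platelet markers, while 2 of the 3 highest were shared. Itgb7, whose chain joins alpha4 in the gut-homing receptor for MAdCAM-1, lies on chromosome 15 from 102215995 to 102231944 on the minus strand. It had 1.08, 9.85 and 13.5 CPM as lowest, median and highest KO level, and 8.49, 6.57, 11.5 and 0.849 CPM in WT replicates 1 to 4. WT replicate 4, KO replicate 2 (2.05 CPM) and KO replicate 3 stood below the others, and the log2 fold change was 0.19 with a standard error of 0.75 (edgeR adjusted p = 0.921). The 3 libraries highest in Itgal, and the 3 highest in Itgb7, were the 3 highest in summed neutrophil and granule markers (415 to 2171 CPM) and in summed hepatoblast markers. At the lower end the match was looser: of the 3 lowest libraries, Itgal shared 2 with the neutrophil and 1 with the hepatoblast markers, and Itgb7 shared 1 and 0. The part of these markers in the levels of Itgal, Itgb2 and Itgb7 was not tested.

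**Figure D4:**
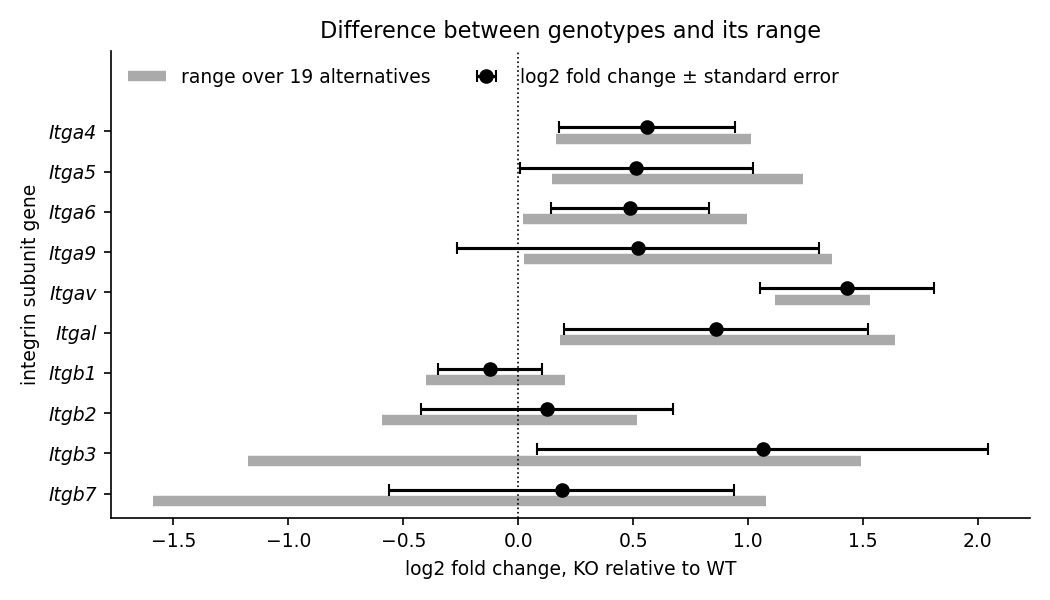
Log2 fold change of each integrin gene, KO relative to WT, from edgeR (black points, with the standard error) and its range over 19 alternative settings (grey bars). Only the interval and the range of Itgav lie wholly above 1, and the ranges of Itgb1, Itgb2, Itgb3 and Itgb7 cross 0.

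Taken as a list, 9 of the 10 genes had a log2 fold change above 0, with a median of 0.52 and a range of -0.12 to 1.43. Over all genes tested, 53.1% were above 0 and the median was 0.06. Apart from Itgav, none of the 10 passed an unadjusted p below 0.05 by edgeR. Over all 16725 genes tested, 1438 were higher and 1701 lower at that p.

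Levels of different genes were compared per length, as TPM, transcripts per 1000000 transcripts, summed over the transcripts of a gene. Averaged over the 10 libraries, Itgb1 was highest at 107 ± 38.3 TPM (SD, n = 10), followed by Itga6 at 57.6, Itgb3 at 29.7, Itga5 at 27.7, Itgb2 at 18.8, Itga9 at 12.2, Itga4 at 9.30, Itgav at 5.79, Itgal at 3.15 and Itgb7 at 2.64 TPM. Itgb1 exceeded Itga6 in all 10 libraries. Itgb3 exceeded Itga5, Itga5 exceeded Itgb2, and Itga9 exceeded Itga4, each in only 5 of 10 libraries, so these neighbours did not differ beyond their spread. Itga6 over Itgb3, Itgb2 over Itga9 and Itga4 over Itgav held in 8 of 10 and Itgal over Itgb7 in 7 of 10. Itgav exceeded Itgal in 9 of 10, but this place in the order depends on the unit. Whole coding transcripts supplied 4.13 to 33.7% of the TPM of Itgav and 6.51 to 23.1% of that of Itga6, since short annotated transcripts weigh heavily per base. When gene counts were divided by the longest coding transcript instead, Itgav became the lowest of the 10, at 0.461 to 1.77 CPM per kilobase, and Itga6 averaged 33.7 CPM per kilobase beside 93.7 for Itgb1.

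**Figure D5:**
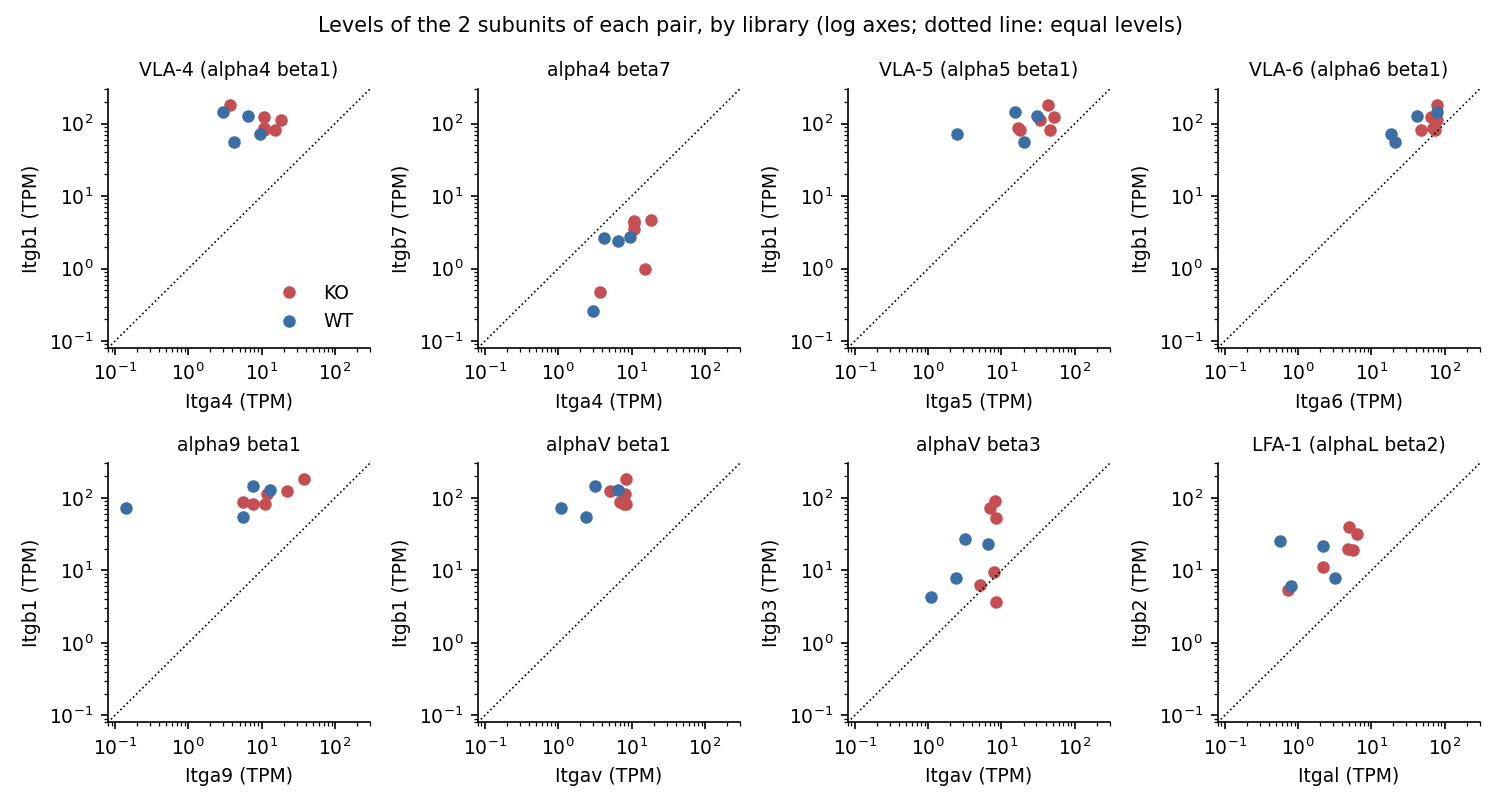
TPM of the alpha chain (horizontal) and the beta chain (vertical) of 8 integrin pairs in each library, both axes logarithmic, red KO and blue WT, with a dotted line at equal levels. Points above the line have less alpha than beta RNA, which holds in all 10 libraries for 6 pairs; the pair of alpha4 with beta7 lies below the line in all 10.

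The lower of the 2 RNAs in a pair sets the most that the levels allow, if RNA is read as chains made. For 6 of the 8 pairs examined the alpha RNA was the lower in all 10 libraries: those of beta1 with alpha4, alpha5, alpha6, alpha9 and alphaV, and that of beta2 with alphaL. The ratio of Itgb1 to its alpha partner had a median of 1.87 for Itga6 (range 1.12 to 3.95), 4.20 for Itga5, 9.76 for Itga4, 9.90 for Itga9 and 20.8 for Itgav. In summed TPM, VLA-6 was the pair with the highest limit in all 10 libraries, at 48.2 to 79.1 TPM in KO and 18.2 to 78.8 TPM in WT, and VLA-5 had 16.6 to 52.0 TPM in KO and 2.48 to 30.8 TPM in WT. This order rests on how Itga6 is counted. Per longest coding transcript, VLA-5 was above VLA-6 in 4 of 10 libraries, with 43.5 against 33.1 CPM per kilobase in KO replicate 1, and when only whole coding transcripts were summed in TPM, Itga5 was above Itga6 in 9 of 10. The pair of alpha9 with beta1 came to 5.65 to 37.4 TPM in KO and 0.141 to 13.0 TPM in WT, and VLA-4 to 3.70 to 18.3 TPM and 2.99 to 9.50 TPM, each above the other in 5 of 10 libraries. For LFA-1 the limit was Itgal, at 0.740 to 6.37 TPM in KO and 0.562 to 3.16 TPM in WT, and Itgb2 exceeded it by a median factor of 6.18. These limits overlapped between the genotypes in TPM. For alphaV with beta1 the limit was Itgav, at 5.10 to 8.45 TPM in KO and 1.09 to 6.47 TPM in WT, which also overlapped. Per longest coding transcript the limit of this pair did not overlap, at 1.04 to 1.77 CPM per kilobase in KO and 0.461 to 0.629 in WT.

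In summed TPM, the alpha chains together did not stay below beta1 in every library. The sum of Itga4, Itga5, Itga6, Itga9 and Itgav divided by Itgb1 was 1.25, 1.56, 0.944, 1.34, 1.44 and 1.27 in TPM in KO replicates 1 to 6. In WT replicates 1 to 4 it was 0.436, 0.773, 0.969 and 0.742. The alpha sum was above Itgb1 in 5 of the 6 KO libraries and in no WT library, although KO replicate 3 fell below WT replicate 3. Per longest coding transcript the KO ratios were 0.773 to 1.18 and the WT ratios 0.360 to 0.830, again with a small overlap. On that scale 4 libraries were above 1. Both scales count all annotated transcripts, and whole coding transcripts supplied only 6.51 to 23.1% of the TPM of Itga6. The ratio was not formed from whole coding transcripts alone, so its dependence on how Itga6 is counted was not tested. The ratio was formed over genes picked with earlier results known and was given no test. Itga6 made up 37.6 to 63.6% of the alpha sum in KO and 39.7 to 73.2% in WT, in TPM. Per longest coding transcript the share of Itga6 spanned 25.3 to 56.8% in KO, beside 29.9 to 60.4% in WT, and Itga5 was the larger part in KO replicates 1 and 2 and WT replicates 2 and 3.

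For alpha4 with beta7, Itgb7 was the lower RNA in all 10 libraries, at 0.0639 to 0.635 of the TPM of Itga4. For alphaV with beta3, Itgav was the lower in 9 libraries. The exception was KO replicate 3, with 3.61 TPM of Itgb3 and 8.33 TPM of Itgav, and per longest coding transcript Itgav was the lower there too. The pair had 5.10 TPM of Itgav and 6.30 TPM of Itgb3 in KO replicate 1, against 8.45 and 53.6 TPM in KO replicate 5. In TPM the excess of beta3 thus went from slight to several-fold between these libraries. Per longest coding transcript, KO replicate 1 had 1.09 CPM per kilobase of Itgav and 5.20 of Itgb3, so the excess was not slight there.

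Partners outside the 10 genes were compared per longest coding transcript. Itga2b was above Itgav in all 10 libraries, by a factor of 15.3 to 145, and also above Itgb3, whose ratio to Itga2b was 0.0996 to 0.639. Of the other beta chains of alphaV, Itgb5 was at 1.74 to 8.79 CPM per kilobase, above Itgav in 9 of 10 libraries, while Itgb8 reached at most 0.113. In summed TPM, Itgb5 was above Itgav in 4 of 10 libraries. Itgb4, the other partner of alpha6, was at 0.0715 to 0.764 CPM per kilobase, beneath Itgb1 by a factor of at least 84.7. Itgae, the other partner of beta7, was at 0.118 to 0.663 CPM per kilobase and below Itga4 in every library. Itgam, which joins beta2 in the complement receptor of phagocytes, exceeded Itgal in 4 of 6 KO and 0 of 4 WT libraries.

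The 4 other integrin lists held 74 tested genes. By edgeR, 1 was higher and 1 lower at an adjusted p below 0.1, beside 3.99% of all genes tested in either direction. At an unadjusted p below 0.05, 6 were higher and 2 lower, beside 1438 and 1701 of all 16725 genes tested. Of the 17 remaining subunits, 15 could be tested and 0 passed at an adjusted p below 0.1 by edgeR, with 0 at an unadjusted p below 0.05 and 0 by DESeq2. The smallest p-values were those of Itgam, with a log2 fold change of 1.81 (edgeR adjusted p = 0.309), and Itgb5, with -0.70 (edgeR adjusted p = 0.327). Of 25 activators and adaptors, 1 was higher and 0 lower by edgeR, with 0 lower also at an unadjusted p below 0.05 and by DESeq2. The higher gene was Tln1, talin, which couples the beta tail to actin. Tln1 had 497, 481, 349, 697, 497 and 657 CPM in KO replicates 1 to 6. In WT replicates 1 to 4 it had 142, 341, 364 and 172 CPM. KO replicate 3 lay just under WT replicate 3, and all other KO libraries lay above all WT libraries. For Tln1 the log2 fold change was 1.06 with a standard error of 0.30 (edgeR adjusted p = 0.0969).

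Of 10 inhibitors and membrane partners, 0 passed by edgeR, with 1 at an unadjusted p below 0.05. Cib1, a calcium-binding protein that binds the alphaIIb tail, had the smallest p with a log2 fold change of -0.51 (edgeR adjusted p = 0.175), and it passed with DESeq2 without a fold-change threshold. Flna, filamin, which competes with talin, followed with 0.51 (edgeR adjusted p = 0.428). Of 24 ligands, 0 were higher by edgeR, with 3 at an unadjusted p below 0.05, and 1 was lower. DESeq2 at the fold-change threshold of 0.1 called 2 ligands higher, named here for that call: Lama5, a laminin chain, with a log2 fold change of 2.34 (DESeq2 adjusted p = 0.0327), and Tnc, tenascin-C, with 3.53 (DESeq2 adjusted p = 0.0983). Lama5 had 4.33 to 18.7 CPM in KO and 0.142 to 5.54 CPM in WT, and Tnc 0 to 7.90 and 0 to 0.592 CPM, so both overlapped between the groups. With no fold-change threshold Vwf, von Willebrand factor, passed as well. The share of all genes that DESeq2 called was not counted, so these calls have no background beside them. The lower ligand was Icam4, an erythroid adhesion molecule that binds several integrins. Icam4 had 23.2, 26.4, 12.1, 17.1, 42.3 and 51.8 CPM in KO replicates 1 to 6. In WT replicates 1 to 4 it had 152, 51.8, 224 and 29.7 CPM. WT replicates 1 and 3 were far above the rest, and the remaining WT libraries lay within or at the edge of the KO range. For Icam4 it was -1.99 as a log2 fold change, with a standard error of 0.54 (edgeR adjusted p = 0.0935). WT replicates 1 and 3 also held summed erythroblast markers of 1907 and 6808 CPM, beside 296 to 941 CPM in the other WT and 278 to 2447 CPM in the KO libraries, and the part of erythroblast RNA in the result was not tested. Over the 74 genes of these 4 lists that were tested, the median log2 fold change was 0.35, with 67.6% above 0. Without WT replicates 1 and 3 together, a choice made after seeing the data, neither Itgav nor any of the 74 genes passed.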

How the data were processed

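LT-HSC RNA was amplified by SmartSeq2 and read as single ends, and the authors quantified transcripts with kallisto 0.44.0 after bcl2fastq 2.20 (versions from the submitters' processing notes) on Gencode vM16 (GRCm38, mm10). They deposited a table of gene counts, which are estimated counts summed by gene symbol and rounded, and per library the estimated count and TPM of each transcript. These expected counts and TPM were deposited without a filter, and TPM is scaled to effective length. For 99 of the 100 values of the 10 genes the sum of transcripts was within 1 count of the gene table.

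Gene counts were analysed with edgeR 4.0.16 in R 4.3.3 (TMM, robust glmQLFit, glmQLFTest), on genes with at least 11 counts in total, with Benjamini-Hochberg adjustment at 0.1. Functions were tested on simulated data. Alternatives used DESeq2 1.42.0 and limma 3.58.1 (pseudocount 1), DESeq2's size factors, filters at 11 counts in 1 library or 1 count in total, a loess offset on transcript length (span 0.3; length known for 95.6% of the genes tested), Xist as a covariate, an adjusted p below 0.05, and libraries left out. TPM was summed by gene for 8 pairs. Positions and lengths came from Gencode vM21 on GRCm38. Replicates are numbered in accession order. Named genes were the 10 subunits, from each other list those past the threshold or the 2 with the smallest p, and the 3 genes most like Itgb1 and Itgav among genes of at least 10 CPM (prior count 2), of which 1 for Itgb1 is not reported here. Genes of other lists, Itgav's and Itga6's transcripts, and partner chains were picked for the text after values were seen. The members and lists were chosen with earlier results of these data known. Counting depth limits precision, and reads carry no molecular identifiers.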

Additional observations from a re-analysis of the deposited data

How the results depend on the processing

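The number of integrin genes past the threshold was 1 and fell to 0 with the offset for transcript length, with Xist as a covariate, with limma on log2(TPM + 1), at an adjusted p below 0.05 and without WT replicates 1 and 3; leaving out 1 library at a time gave 0 to 1. The other integrin and adhesion genes past the threshold numbered 2. They became 4 and 7 with DESeq2, first at the fold-change threshold of 0.1 and then at none. The share of all genes called by DESeq2 was not counted, so this rise is not read as a trait of these genes. Their number was 0 with the length offset, with Xist, at 0.05 and without WT replicates 1 and 3. Leaving out 1 library gave 0 to 3. The pairs with the lower alpha RNA in every library numbered 6, 6 to 7 with 1 library left out, 7 by counts per mean or longest coding transcript length (the latter chosen after seeing the data) and 6 by the most abundant transcript. Signs turned for Itgb1 (0.21 with limma, -0.26 to 0.050 with 1 library left out, positive without WT replicate 4), Itgb2 (-0.59 with Xist, -0.15 to 0.52 with 1 library left out and negative without KO replicate 4 or 6 or WT replicate 1, -0.41 without WT replicates 1 and 3), Itgb3 (-1.18 with Xist) and Itgb7 (-1.59 with Xist, -0.17 to 0.60 with 1 library left out and negative without KO replicate 5 or WT replicate 4). The cause was not tested, beyond the fewer libraries of the settings that leave some out. Itga4, Itga5, Itga6, Itga9, Itgal and Itgav kept a positive sign in all 19 settings; with 1 library left out, Itga5 had 0.15 to 0.82, Itga6 0.25 to 0.90, Itga9 0.11 to 0.86 and Itgal 0.56 to 1.64. No analysis paired by litter was possible because the labels do not name the litters. Depth limits Itgav, Itgal and Itgb7 most, at 6 to 793 counts per library.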
